A study of Mus musculus with 4 samples.

Results

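A set of 10 genes that mark radial glia or run part of their metabolism are described here in single-cell transcriptomes of mouse rostral neocortex at E15.5. They are Nes, Vim, Fabp7, Slc1a3, Aldoc, Mt3, Phgdh, Ednrb, Ptn and Dbi, chosen by their symbols, and all 10 were found among the 32285 genes listed. The i4F-Nes embryos had the genotype Nestin-Cre;i4F;ROSA-STOP-rtTA. Their i4F cassette expresses the 4 Yamanaka factors (Pou5f1, Sox2, Klf4 and Myc) when doxycycline and the rtTA transactivator are both present, and the transactivator is made where Nestin-Cre, active in neural progenitors, has removed a stop cassette. Littermate controls (CTR) had the genotype i4F;ROSA-STOP-rtTA, thus the cassette and the silent transactivator without the Cre. Both groups received doxycycline, 0.2 mg/ml in the water of the pregnant females from E10.5 to E14.5, 4 days that ended 1 day before collection. There were 2 libraries per group.

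Radial glia are the neural stem cells of the developing cortex, whose bodies line the ventricle and whose fibres span the wall. They divide to give intermediate progenitors, which express Eomes, and through them the excitatory neurons. Nes (nestin) and Vim (vimentin) build their intermediate filaments, and Fabp7 (brain lipid-binding protein) carries fatty acids. Slc1a3 (GLAST) takes up glutamate, Aldoc is the aldolase of glycolysis typical of astroglia, Phgdh makes the first step of serine synthesis, and Dbi binds acyl-CoA esters. Mt3 is a metallothionein that binds zinc and copper, Ednrb is a receptor for endothelins, and Ptn (pleiotrophin) is a secreted growth factor.

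Cells were grouped by gates on unique molecular identifiers (UMIs, counts of captured transcripts) of genes outside the 10. The radial glia gate needed at least 1 UMI of each of Hes5, Sox9 and Pax6 in a cell outside both reprogrammed gates described next. It held 872 and 465 i4F-Nes cells, against 722 and 389 CTR cells, in replicates 1 and 2. A reprogrammed progenitor gate (Cytl1 and Cd109) held 190 and 164 i4F-Nes cells and 0 CTR cells in both libraries. A reprogrammed neuron-like gate (Krt8, Crabp2 and an Ebf gene, cells of the reprogrammed progenitor gate left out) held 241 and 191 i4F-Nes cells and 0 CTR cells in both libraries. Further gates were the Eomes, Neurod1, deep-layer, upper-layer and interneuron gates, again without cells of the reprogrammed gates. Cells that then still met more than 1 gate were put in none. The names are those of the gate genes, and levels are CPM, a gene's UMIs scaled to a common total of the gate.

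Filters on depth, genes and mitochondrial share left 7498 and 6407 cells of i4F-Nes and 6046 and 6690 of CTR, at median depths between 11342 and 15140.5 UMIs. In the radial glia gate, 10 radial glia markers that were neither gate genes nor members were summed (Sox2, Hes1, Ttyh1 and others). They reached 3178 and 2829 CPM in i4F-Nes and 3452 and 3052 CPM in CTR. The gate itself required radial glia genes, and Sox2 is also a factor of the cassette, so these sums do not check the tissue label. Haemoglobin and Alas2 transcripts summed to 1689 CPM in the radial glia gate of CTR replicate 1, against 6.94 to 48.8 CPM in the other 3 libraries. Xist was at 0 in the CTR replicate 1 radial glia gate and between 818 and 982 CPM in the other 3. Pairs of libraries shared 20 to 31 cell barcodes. The labels do not say how many embryos went into a library, so p-values measure the spread between libraries only.

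One fact of the gate touches every result on i4F-Nes radial glia. Nanog, a pluripotency gene, stood at 28.7 and 13.1 CPM in the i4F-Nes radial glia gate and at 0.268 and 0.332 CPM in the CTR gate, and the gate can keep reprogrammed cells in which no UMI of Cytl1 or Cd109 was captured. A wider exclusion, chosen after the data were seen, also removed cells with at least 2 UMIs over Cytl1, Cd109, Anxa1, Lgals7 and Krt8. It left 727 and 367 i4F-Nes cells with Nanog at 0.867 and 0.493 CPM and 707 and 388 CTR cells with Nanog at 0.275 and 0.333 CPM. Its values are given beside the main ones.

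In the reprogrammed progenitor gate the genes were lost to unequal degrees. By share of UMIs, Fabp7 and Mt3 were at 6.78% of the radial glia level or less and Slc1a3 at 23.4% and 34.4%. Ptn, Dbi, Phgdh and the filament genes ranged from 35.5% to 80.8%. Aldoc, at 29.8% and 60.2%, and Ednrb, at 19.4% and 71.0%, depended on the library. Of the 10, 5 were at least 2-fold lower than in the radial glia gate in both i4F-Nes libraries (Fabp7, Mt3, Slc1a3, Ptn and Dbi) and 0 were higher. Over all 9664 genes with at least 10 CPM in both libraries of either gate, 5.54% were lower and 4.73% higher by the same rule. The mean log2 ratio of the 10 had a median of -1.25, against -0.08 over all genes. With the wider exclusion 6 were lower (Phgdh in addition) against a background of 7.61%. The gate genes had been taken from earlier clusters of the same cells, so these ratios are a description without a test.

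**Figure D1:**
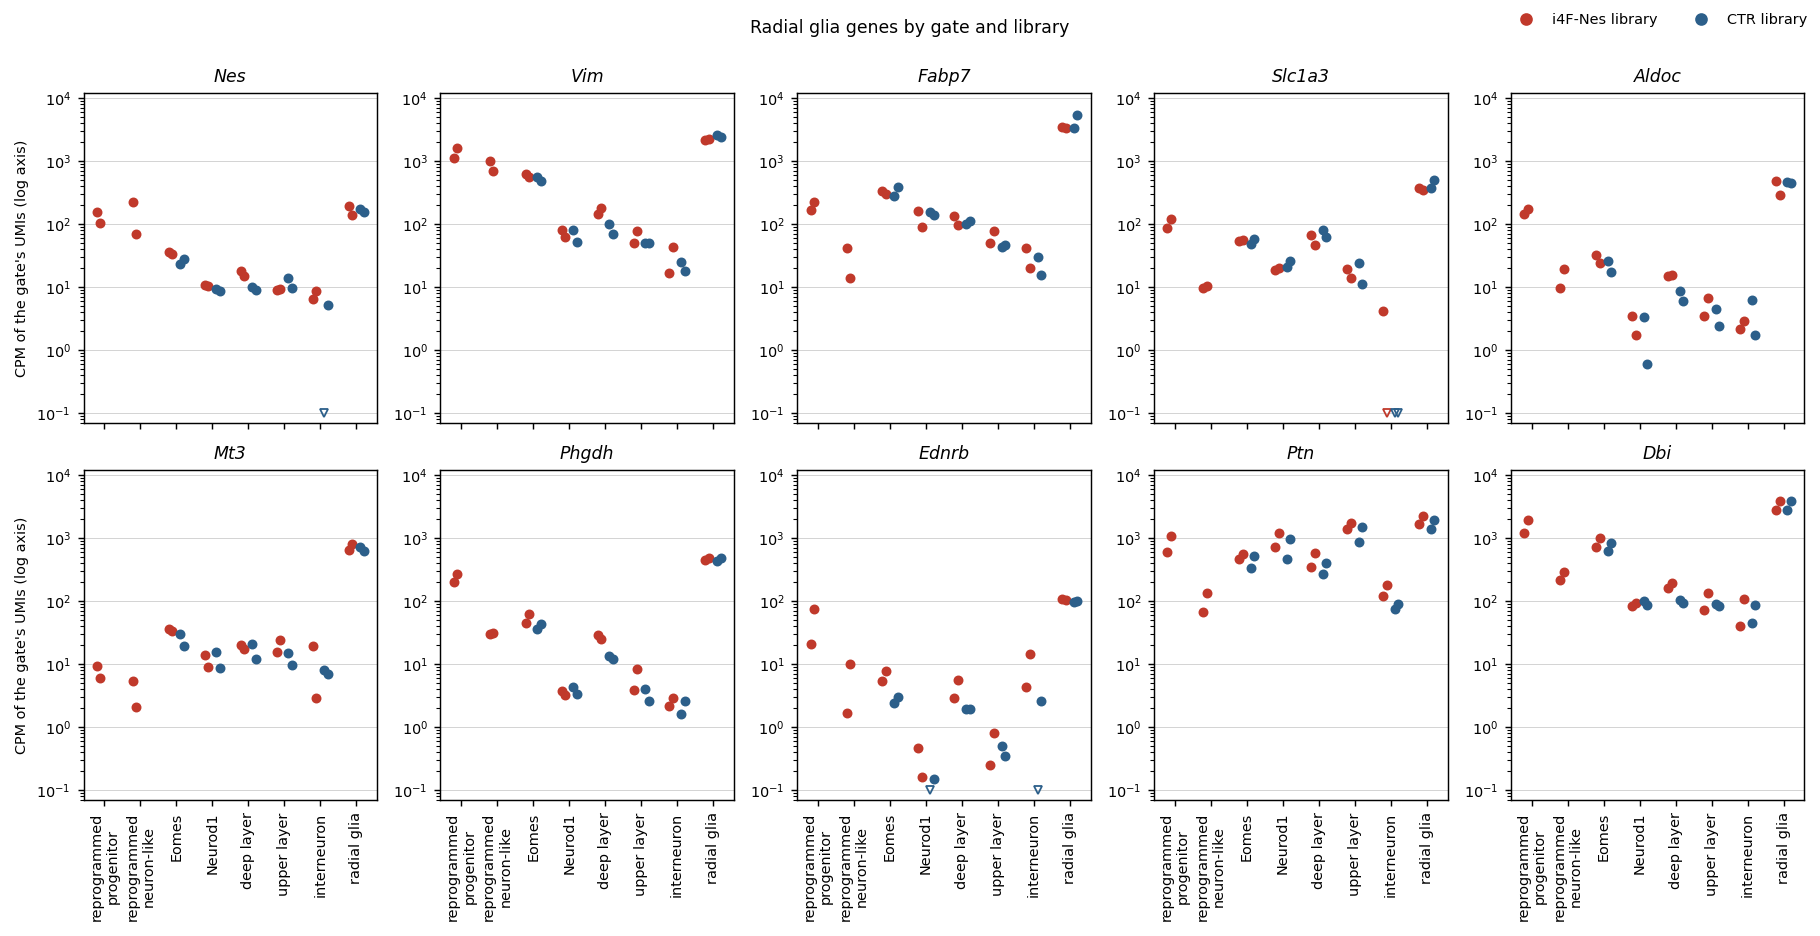
Level of each gene in each gate, in CPM of the gate on a log axis. Each point is 1 library (i4F-Nes left of CTR within a gate), and open triangles at 0.1 are libraries with 0 UMIs. The reprogrammed gates existed in i4F-Nes libraries alone, and the radial glia gate, at the right, was the highest gate by mean i4F-Nes level for all 10 genes.

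Mt3 was the lowest relative to radial glia. It lies on chr8:94152607-94154146 (plus strand, GRCm38). The reprogrammed progenitor gate had 9.42 and 6.09 CPM and the radial glia gate of the same i4F-Nes libraries had 649 and 798 CPM, a 68.9-fold and a 131-fold lower level. The gates did not overlap, and Mt3 in the reprogrammed progenitor gate was also below the upper-layer gate, at 15.7 and 23.8 CPM, and the deep-layer gate, at 20.2 and 17.4 CPM. When every cell was thinned to 5000 UMIs, 4.74% and 3.09% of reprogrammed progenitor cells had an Mt3 UMI, against 72.6% and 71.6% of radial glia. Upper-layer cells, which were taken as a background of free RNA, had one in 6.43% in both libraries, above the reprogrammed progenitor shares. Whether the Mt3 UMIs of reprogrammed progenitor cells were free RNA alone was not tested. The upper-layer gate of i4F-Nes replicate 2 also held 4036 CPM of erythroid markers, against 49.2 CPM in replicate 1, and their part in its shares was not tested. Before thinning, the shares were 21.05% and 9.76% in reprogrammed progenitor cells, 15.49% and 11.6% in upper-layer cells and 81.0% and 77.85% in radial glia. Thinning left out 341 and 1734 i4F-Nes cells that were too shallow. The other metallothioneins did not follow: Mt1 had 261 and 558 CPM in the reprogrammed progenitor gate, against 226 and 506 CPM in the radial glia gate.

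Fabp7 came next. It lies on chr10:57784881-57788450 (plus strand). The reprogrammed progenitor gate had 168 and 228 CPM, against 3478 and 3364 CPM in the i4F-Nes radial glia gate, 20.7-fold and 14.8-fold lower. At matched depth 33.7% and 44.4% of reprogrammed progenitor cells had a Fabp7 UMI, above the 25.4% and 13.8% of upper-layer cells and below the 88.5% and 86.2% of radial glia, while the unthinned shares were 86.3% and 78.05% in reprogrammed progenitor cells and 97.2% and 94.2% in radial glia. Its paralog Fabp5, which also binds fatty acids, had 272 and 219 CPM in the reprogrammed progenitor gate and 383 and 463 CPM in the radial glia gate, a difference that missed 2-fold in replicate 1.

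The promoters of Mt3 and Fabp7 are shown because their levels were the lowest relative to radial glia, and that of Aldoc because its windows alone among the 10 genes held a searched motif. The windows are RefSeq's on GRCm38.p6, 250 bases before to 50 after an annotated start, printed 5′ to 3′ on the gene's strand, at chr8:94152357-94152656 for Mt3, chr10:57784673-57784972 for Fabp7 and chr11:78322823-78323122 for Aldoc, all on the plus strand. Capitals mark a motif match.
Mt3: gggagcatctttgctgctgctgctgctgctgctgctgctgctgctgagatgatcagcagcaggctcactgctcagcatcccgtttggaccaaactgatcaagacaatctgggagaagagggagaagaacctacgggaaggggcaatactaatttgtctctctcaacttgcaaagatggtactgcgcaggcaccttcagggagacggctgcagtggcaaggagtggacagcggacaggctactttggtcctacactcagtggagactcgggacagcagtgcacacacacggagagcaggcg
Fabp7: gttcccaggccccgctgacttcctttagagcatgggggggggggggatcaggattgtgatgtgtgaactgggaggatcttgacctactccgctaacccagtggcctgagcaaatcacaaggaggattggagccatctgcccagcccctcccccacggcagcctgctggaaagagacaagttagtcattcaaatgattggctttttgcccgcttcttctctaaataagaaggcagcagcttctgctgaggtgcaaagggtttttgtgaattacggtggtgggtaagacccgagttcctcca
Aldoc: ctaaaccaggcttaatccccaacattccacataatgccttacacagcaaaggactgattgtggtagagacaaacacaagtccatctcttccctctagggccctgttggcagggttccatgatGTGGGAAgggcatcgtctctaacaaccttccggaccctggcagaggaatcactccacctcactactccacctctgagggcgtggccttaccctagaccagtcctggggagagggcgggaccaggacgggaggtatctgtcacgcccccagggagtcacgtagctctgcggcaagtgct

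All 10 genes matched RefSeq's table, with 12 windows, since Aldoc and Dbi had 2 each. Both strands were searched for exact matches of 6 motifs. The Rbpj motif GTGGGAA, bound by the Notch effector, matched in both Aldoc windows and no other member's window, and in 6.38% of all 32851 mouse windows. No member window held the Pou octamer ATGCAAAT (1.74% of all windows), the Sox motif CATTGT (12.6%), the Klf motif GGGTGTG (7.95%), the Myc E-box CACGTG (7.15%) or the NFI palindrome (0.0365%). A match describes letters in the window and nothing of binding.

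Slc1a3 (chr15:8634124-8710764, minus strand) had 86.9 and 121 CPM in the reprogrammed progenitor gate and 372 and 351 CPM in the i4F-Nes radial glia gate, 4.28-fold and 2.91-fold lower. In the neuron gates of the same libraries it ranged from 0 CPM (interneurons, 1 library) to 67.2 CPM (deep layer), so the reprogrammed progenitor level lay between those of neurons and radial glia. Of the other genes of glutamate uptake and use, Glul, which makes glutamine, was higher in the reprogrammed progenitor gate, at 228 and 326 CPM against 74.1 and 86.0 CPM in radial glia. Glud1, glutamate dehydrogenase, differed by less than 2-fold.

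Aldoc (chr11:78322968-78327781, plus strand) depended on the library. The reprogrammed progenitor gate had 144 and 177 CPM and the radial glia gate 482 and 294 CPM, 3.35-fold lower in replicate 1 and 1.66-fold lower in replicate 2. The groups did not overlap, and the difference between replicates came mostly from the radial glia level. None of 11 other measured glycolysis genes was 2-fold lower or higher in both libraries, and their median log2 ratio was -0.28. Gapdh, for example, had 1517 and 1294 CPM in reprogrammed progenitor cells, against 1780 and 1620 CPM in radial glia.

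Phgdh (chr3:98313170-98339990, minus strand) had 199.8 and 264 CPM in the reprogrammed progenitor gate, against 444 and 479 CPM in the radial glia gate, so it lay just outside the rule with folds of 2.22 and 1.82. The remaining serine and glycine genes were 6, of which 1, Psat1, the next enzyme of the pathway, was lower at 59.6 and 42.4 CPM against 149 and 120.0 CPM. Psph, the last step to serine, was not lower, at 192 and 224 CPM in reprogrammed progenitor cells and 162 and 182 CPM in radial glia.

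Dbi (chr1:120113280-120121078, minus strand) lay just inside the rule, at 1212 and 1916 CPM in the reprogrammed progenitor gate, against 2797 and 3864 CPM in radial glia, 2.31-fold and 2.02-fold lower. Ptn (chr6:36714929-36810220, minus strand) had 591 and 1084 CPM, against 1666 and 2235 CPM, 2.82-fold and 2.06-fold lower. Its receptors Ptprz1 and Alk were lower as well, Ptprz1 at 228 and 292 CPM against 663 and 846 CPM and Alk at 7.91 and 14.54 CPM against 119 and 92.2 CPM. Mdk (midkine), the second ligand of the family, had 274 and 369 CPM against 610 and 725 CPM, which missed 2-fold in replicate 2.

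Ednrb (chr14:103814625-103844402, minus strand) differed between the replicates. It had 20.8 and 74.9 CPM in the reprogrammed progenitor gate, against 107 and 105 CPM in radial glia, 5.15-fold lower in replicate 1 and 1.41-fold lower in replicate 2.

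The filament genes were the best kept. Nes (chr3:87971078-87980451, plus strand) had 155 and 104 CPM in the reprogrammed progenitor gate and 191 and 139 CPM in the radial glia gate, and the 2 ranges overlapped. Vim (chr2:13573927-13582826, plus strand) had 1127 and 1646 CPM, against 2143 and 2247 CPM, 1.90-fold and 1.37-fold lower. Among other intermediate filament genes Lmna (lamin A), Krt8 and Krt18 (keratins) were at least 2-fold higher in the reprogrammed progenitor gate, Lmna at 141 and 91.6 CPM against 39.8 and 28.9 CPM, although Krt8 helped to define the other reprogrammed gate.

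The share of UMIs and the number of UMIs per cell gave different pictures, because reprogrammed progenitor cells were deeper. They averaged 45233 and 31029 UMIs per cell, against 20041 and 18590 in the i4F-Nes radial glia gate. Per cell, Phgdh then stood at 9.04 and 8.18 UMIs in the reprogrammed progenitor gate, against 8.90 and 8.91 UMIs in radial glia, 102% and 91.8% of the radial glia number. Dbi reached 97.8% and 82.7% of it, Ptn 80.1% and 81.0%, Vim 119% and 122%, and Nes 182% and 126%. Aldoc reached 67.3% and 100.5%, and Ednrb 43.8% and 119%. Slc1a3 stayed at 52.7% and 57.4%, Fabp7 at 10.9% and 11.3% and Mt3 at 3.28% and 1.27% of the number of UMIs per radial glia cell. Slc1a3, Fabp7 and Mt3 were under 60% of the radial glia number per cell in both libraries. A gate that needs UMIs of given genes favours deep cells, and the part of this in the depth difference was not tested.

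**Figure D2:**
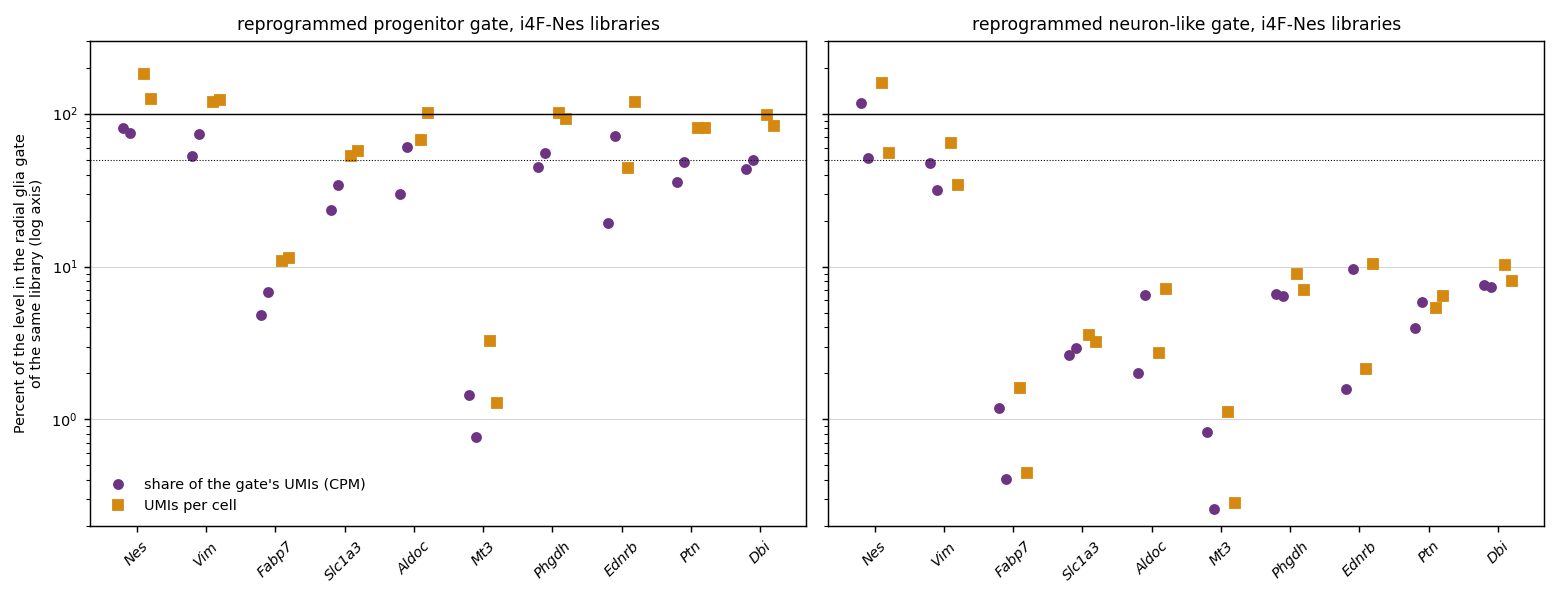
Level of each gene in the 2 reprogrammed gates as a percent of the radial glia gate of the same i4F-Nes library, on a log axis. Circles are shares of the gate's UMIs, squares are UMIs per cell, each point is 1 library, and lines mark 100% and 50%. Fabp7 and Mt3 lie near or under 10% by both measures in the reprogrammed progenitor gate. All genes but Nes and Vim lie under 11% in the neuron-like gate, and the share of all genes under that line is not given.

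Cells of the reprogrammed progenitor gate were not uniform in these genes. Those with a Nanog UMI (140 and 62 cells) had less Fabp7 than those without (50 and 102 cells), 76.6 and 117 CPM against 567 and 328 CPM. The same held for Mt3 with 4.57 and 1.24 CPM against 30.6 and 10.45 CPM, for Aldoc with 73.8 and 107 CPM against 451 and 240 CPM, and for Ednrb with 13.7 and 30.7 CPM against 51.9 and 115 CPM. These 4 were at least 2-fold lower in both libraries, as were 42 of 9289 measured genes (0.452%). Phgdh (199 and 238 CPM against 204 and 287 CPM) and Slc1a3 (87.2 and 117 CPM against 85.6 and 124 CPM) were near equal in the 2 subsets. Cells with a Nanog UMI were also deeper, with medians of 44649.5 and 36500.5 UMIs against 31577.5 and 25245.5, and the part of depth in the split was not tested.

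Another split used the radial glia gate genes themselves. In 90 and 54 reprogrammed progenitor cells UMIs of Hes5, Sox9 and Pax6 were all present, and Fabp7 was at 229 and 388 CPM, against 99.4 and 132 CPM in the 100 and 110 remaining cells. Mt3 was at 13.9 and 14.2 CPM, against 4.44 and 1.25 CPM. Both were still far below the radial glia gate's 3478 and 3364 CPM of Fabp7 and 649 and 798 CPM of Mt3, so cells that met all 3 radial glia gate genes did not carry the radial glia level of either. Slc1a3, Phgdh, Ptn, Dbi, Vim, Nes and Ednrb differed by less than 1.5-fold between the 2 subsets in both libraries.

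**Figure D3:**
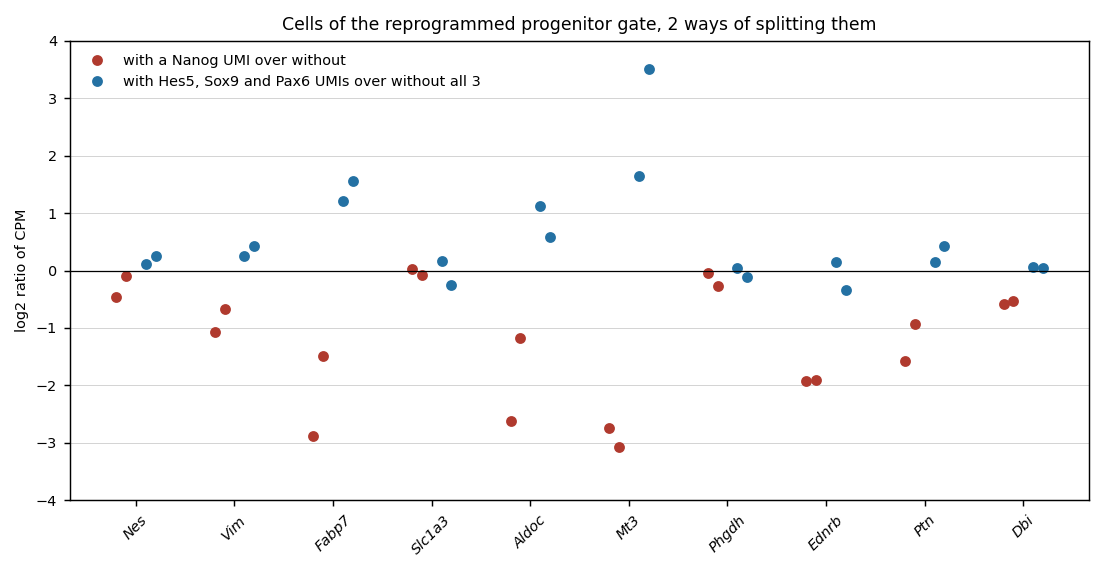
Log2 ratio of CPM between subsets of the reprogrammed progenitor gate, 1 point per i4F-Nes library. Red points compare cells with a Nanog UMI with those without, and blue points compare cells with UMIs of Hes5, Sox9 and Pax6 with those lacking at least 1 of the 3. Fabp7, Aldoc, Mt3 and Ednrb were lower with Nanog, and Fabp7 and Mt3 were higher with the radial glia gate genes.

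In the reprogrammed neuron-like gate 9 of the 10 genes were at least 2-fold lower than in radial glia in both libraries. The share was 12.4% over all 9946 genes measured. By the same rule 0 of the 10 were higher, against 9.73%. All but Nes and Vim were over 10-fold lower, a threshold at which the share of all genes is not given here. Mt3 had 5.39 and 2.08 CPM, against 649 and 798 CPM in radial glia, and Fabp7 41.5 and 13.8 CPM, against 3478 and 3364 CPM. Slc1a3 had 9.85 and 10.4 CPM, Aldoc 9.69 and 19.2 CPM and Phgdh 29.5 and 30.9 CPM. Ednrb had 1.69 and 10.1 CPM, Ptn 66.5 and 132 CPM and Dbi 212 and 285 CPM. Vim was lower by less, with 1019 and 709.9 CPM against 2143 and 2247 CPM. Nes was the exception, at 225 and 71.1 CPM, against 191 and 139 CPM in radial glia: higher in replicate 1 and lower in replicate 2. At matched depth 51.5% and 17.6% of reprogrammed neuron-like cells had a Nes UMI, against 3.57% and 2.61% of upper-layer neurons. Of 6 neuronal markers, 6 were at least 2-fold higher in this gate than in radial glia, so Nes and Vim were present beside Tubb3 at 2727 and 2721 CPM.

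The pathway lists had median log2 differences from radial glia of -1.69 for serine and glycine synthesis and -0.95 for glycolysis in the reprogrammed neuron-like gate, beside 0.01 and -0.28 in the reprogrammed progenitor gate. For the pleiotrophin list the medians were -0.53 and -1.06 in the same order of gates. In the endothelin list only 1 of 5 genes, Ece2, was measured. Its values were -1.97 and -2.78 in that order, which says nothing of the list as a whole. No difference between the gates was tested. Of 6 serine and glycine genes, 4 were lower than in radial glia (Psat1, Psph, Shmt1 and Gldc), with Psph at 47.7 and 48.5 CPM against 162 and 182 CPM. Of 11 measured glycolysis genes, 5 were lower (Pfkl, Gapdh, Pgam1, Eno1 and Ldha), with Ldha at 169 and 121 CPM against 486 and 479 CPM. Of 7 pleiotrophin partners, 3 were lower (Mdk, Ptprz1 and Alk) and 2 higher (Sdc3, a syndecan, and Nrp1, a neuropilin). Of 7 acyl-CoA and fatty acid genes, 2 were lower (Acsl3 and Cpt1a), while Fabp5 had 655 and 783 CPM against 383 and 463 CPM.

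**Figure D4:**
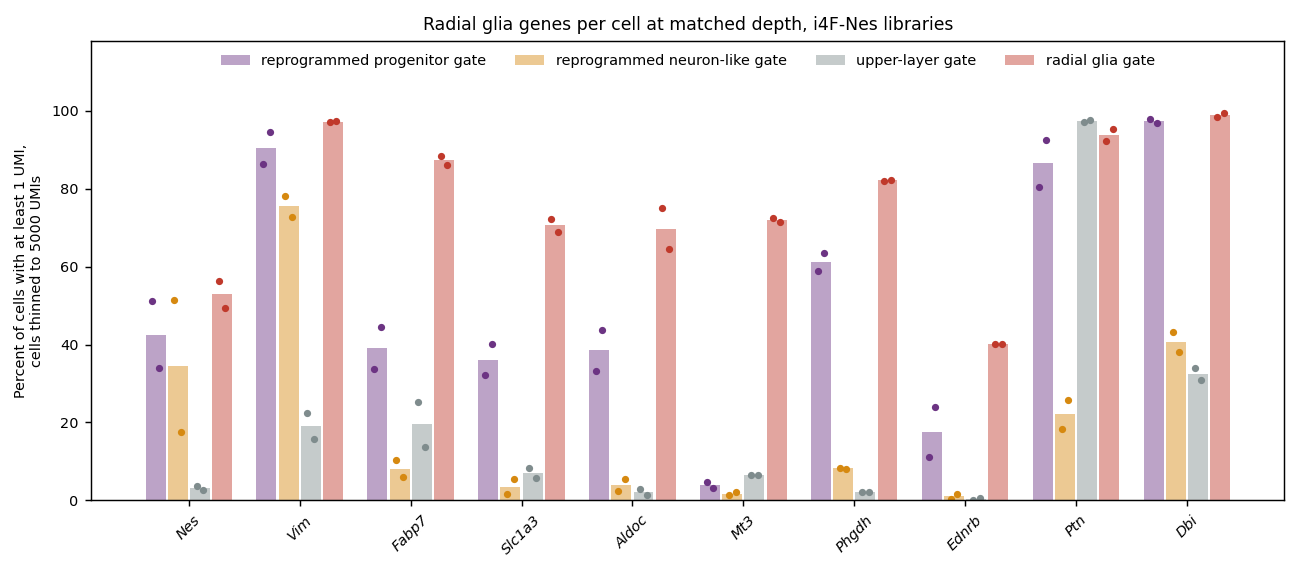
Percent of cells with at least 1 UMI of each gene after every cell was thinned to 5000 UMIs, in i4F-Nes libraries. Points are libraries and bars their means, and the upper-layer gate serves as a background for genes that neurons lack, which excludes Ptn. Mt3 in both reprogrammed gates lies at or under the upper-layer share, and Dbi in reprogrammed progenitor cells is close to the radial glia share.

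Along the lineage all 10 genes fell at the Eomes stage. With 4 libraries, both groups together and the library as a block, 10 of 10 were lower in the Eomes gate than in the radial glia gate by edgeR's quasi-likelihood test with Benjamini-Hochberg adjustment over 14707 genes, 34.8% of which were lower. Mt3 fell by 4.47 ± 0.142 (log2 fold change and its SE), with 36.4 and 32.9 CPM in the Eomes gate of i4F-Nes libraries and 29.4 and 19.6 CPM in that of CTR libraries. Ednrb fell by 4.47 ± 0.233, Aldoc by 3.99 ± 0.191, Fabp7 by 3.46 ± 0.0719 and Phgdh by 3.22 ± 0.103 on the log2 scale. The smaller changes were those of Slc1a3 (-2.77), Nes (-2.36), Vim (-1.97), Dbi (-1.97) and Ptn (-1.86). The adjusted p of edgeR's test lay between 1.22e-08 (Ptn) and 5.49e-05 (Aldoc). With the wider exclusion all 10 were lower again, against a background of 33.9%. Without TMM scaling the median of all genes moved to -0.13, against -0.02 with it.

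The reprogrammed progenitor gate differed from the Eomes gate of the same libraries in how it departed from radial glia. Phgdh had 199.8 and 264 CPM in the reprogrammed progenitor gate and 44.7 and 62.8 CPM in the Eomes gate, Aldoc 144 and 177 CPM against 32.2 and 24.6 CPM, and Nes 155 and 104 CPM against 36.3 and 33.6 CPM. Mt3 and Fabp7 were in the opposite order, Fabp7 with 168 and 228 CPM against 342 and 298 CPM, and Mt3 with 9.42 and 6.09 CPM against 36.4 and 32.9 CPM. None of these ranges overlapped between the 2 gates. How many of all genes separated in the same way is not given here.

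Ordered by mean i4F-Nes level, the radial glia gate came first for all 10 genes. For Nes it overlapped the reprogrammed neuron-like gate, and for Ptn it overlapped the upper-layer gate, with 1666 and 2235 CPM in radial glia and 1373 and 1757 CPM in upper-layer neurons. For the other 8 genes the next gate did not overlap it. The share of all genes that came first or separated in this way is not given here. The reprogrammed progenitor gate was second for Vim, Slc1a3, Aldoc, Phgdh, Ednrb and Dbi and seventh of 8 gates for Mt3. By mean level the interneuron gate was the lowest for 6 of the genes. The Neurod1 gate was the lowest for Ednrb, and the reprogrammed neuron-like gate for Fabp7, Mt3 and Ptn. The lowest gate overlapped the next one for Aldoc, Dbi, Ednrb, Fabp7 and Ptn. The interneuron gate was small, with 54 and 41 i4F-Nes cells and 468591 and 347698 UMIs in all, so its low levels rest on few UMIs. Ednrb in Neurod1 neurons was at 0.472 and 0.158 CPM.

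Pathway genes partly shared the drop at the Eomes stage. Of 6 serine and glycine genes, 5 were lower in the Eomes gate (Psat1 by 3.74 ± 0.0977 and Psph by 2.48 ± 0.0724 on the log2 scale) and 0 higher. Of 12 glycolysis genes, 10 were lower and 1, Ldhb, was higher, with a median of -0.53. Of 5 metallothionein and zinc genes, 4 were lower, among them Mt2 (-3.82 ± 0.204) and Mt1 (-3.51 ± 0.333). Of 7 pleiotrophin partners, 5 were higher, so Ptn fell while Mdk (0.53 ± 0.0411), the related ligand, rose, and Ptprz1 fell by 3.20 ± 0.166. Of 8 fatty acid and acyl-CoA genes, 4 were higher and 2 lower, Fabp5 rising by 0.76 ± 0.0528. All these calls are edgeR's at an adjusted p under 0.05. By the same rule 33% of all 14707 genes tested were higher in the Eomes gate and 34.8% lower.

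Within the radial glia gate, i4F-Nes did not differ detectably from CTR in any of the 10 genes. With 2 libraries against 2, edgeR's quasi-likelihood test with Benjamini-Hochberg adjustment called 445 of 14165 genes (3.14%), 431 of them higher, and 0 of the 10. None of the 10 had an unadjusted p under 0.05, and DESeq2 also called 0. After the wider exclusion edgeR called 0 of 13448 genes (0%), 476 having an unadjusted p under 0.05.

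Fabp7 had 3478 and 3364 CPM in the i4F-Nes radial glia gate and 3404 and 5447 CPM in the CTR gate, a log2 fold change of -0.39 ± 0.271 (95% interval -1.01 to 0.23, edgeR adjusted p = 0.822). The groups overlapped, and CTR replicate 2 stood apart as the high value. In the gate so narrowed the i4F-Nes values were 4470 and 4501 CPM, against 3422 and 5451 CPM in CTR, and the fold change was 0.00 ± 0.269 (interval -0.61 to 0.62).

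For Slc1a3 and Aldoc the estimate also moved to near 0 with the wider exclusion. Slc1a3 had 372 and 351 CPM in i4F-Nes and 379 and 512 CPM in CTR, -0.32 ± 0.209, and 0.03 ± 0.210 with the wider exclusion. Aldoc had 482 and 294 CPM in i4F-Nes and 465 and 459 CPM in CTR, -0.27 ± 0.226, and 0.00 ± 0.241 with the wider exclusion. Vim had 2143 and 2247 CPM in i4F-Nes, against 2570 and 2383 CPM in CTR, -0.18 ± 0.202. Nes, at 191 and 139 CPM in i4F-Nes and 173 and 156 CPM in CTR, had a log2 fold change of -0.01 ± 0.176 (interval -0.41 to 0.39).

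Mt3 had 649 and 798 CPM in i4F-Nes and 729 and 627 CPM in CTR, 0.09 ± 0.209. With the wider exclusion it had 846 and 1089 CPM in i4F-Nes, against 735 and 628 CPM in CTR, 0.51 ± 0.215 (interval 0.01 to 1.00, edgeR unadjusted p = 0.0448, adjusted p = 1.00). Ednrb had 107 and 105 CPM in i4F-Nes and 95.2 and 99.7 CPM in CTR, 0.12 ± 0.146. After that exclusion Ednrb had 135 and 124 CPM, against 95.02 and 99.8 CPM, 0.40 ± 0.151 (edgeR unadjusted p = 0.0277, adjusted p = 1.00). After the wider exclusion Mt3, Ednrb, Phgdh and Ptn were higher in both i4F-Nes libraries than in both CTR libraries, as were 2343 of the 13448 genes tested (17.4%), and none of the 4 passed the adjustment.

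Phgdh (0.01 ± 0.190), Ptn (0.21 ± 0.268) and Dbi (0.00 ± 0.278) had intervals that spanned 0, the widest running from -0.63 to 0.64 for Dbi. Dbi was higher in replicate 2 than in replicate 1 of both groups, with 2797 and 3864 CPM in i4F-Nes and 2754 and 3855 CPM in CTR. Over the 10 genes in the gate as defined, the lower and upper ends of the intervals were -1.01 (Fabp7) and 0.82 (Ptn). Changes of more than about 2-fold thus lay outside every interval of that gate except that of Fabp7. These bounds do not cover the wider exclusion, where Ptn had 2026 and 2755 CPM in i4F-Nes and 1393 and 1959 CPM in CTR.

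**Figure D5:**
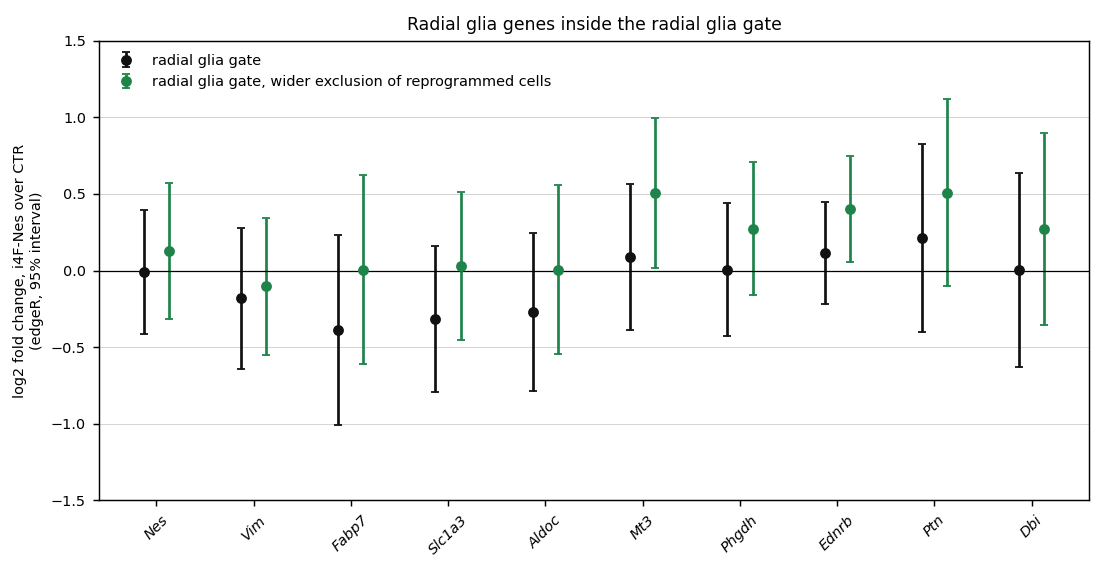
Log2 fold change of i4F-Nes over CTR inside the radial glia gate, with 95% intervals from edgeR (2 libraries per group). Black points are the gate as defined, and green points the gate after the wider exclusion of reprogrammed cells. Black intervals all span 0, and among green ones those of Mt3 and Ednrb lie above it.

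Among the related lists, filament and endothelin genes differed in that gate. Krt8, Krt18 and Lmna were higher (3 of 8 tested filament genes), Lmna by 2.13 ± 0.212 with an edgeR adjusted p of 0.00116, and Krt8 stood at 98.4 and 49.97 CPM in i4F-Nes against 0 in both CTR libraries. With the wider exclusion 0 of the filament genes were called, and Krt8, itself part of that exclusion, was at 3.31 and 0.658 CPM in i4F-Nes. Ednra, the other endothelin receptor, was higher in i4F-Nes in the main gate, 1 of 3 tested endothelin genes. None of the serine, glutamate, glycolysis, metallothionein, acyl-CoA or pleiotrophin genes passed. Oligodendrocyte precursor markers summed to 14.2 and 16.5 CPM in the i4F-Nes gate and 1.81 and 3.48 CPM in the CTR gate, and their part in these results was not tested.

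In the Eomes gate, edgeR's quasi-likelihood test called 0 of 13497 genes between i4F-Nes and CTR (0%), with 559 at an unadjusted p under 0.05, and DESeq2 called 52. None of the 10 genes passed. Ednrb came closest, with 5.29 and 7.69 CPM in i4F-Nes and 2.39 and 2.95 CPM in CTR, 1.25 ± 0.342 (edgeR unadjusted p = 0.00677, adjusted p = 0.590), higher in 2 of 2 i4F-Nes libraries. Nes had 36.3 and 33.6 CPM in i4F-Nes and 23.6 and 28.0 CPM in CTR, 0.42 ± 0.174. The 8 other genes had unadjusted p-values above 0.05. When the wider exclusion was applied Ednrb had a log2 fold change of 0.99 ± 0.313, Mt3 of 0.67 ± 0.205 (edgeR unadjusted p = 0.0133) and Nes of 0.26 ± 0.171, each with an edgeR adjusted p of 1.00.

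Whether the i4F-Nes effect differed between the radial glia and Eomes gates was put to an interaction test, blocked on library. The difference was called for 42 of 14707 genes (0.286%) and for 0 of the 10. All 10 differences were negative. An unadjusted p under 0.05 was found for 8 of the 10, beside 1299 of all 14707 genes (8.83%), and after the wider exclusion for 1 (Ednrb), beside 756 of 14272 genes (5.3%). Ednrb had the greatest difference, -1.08 ± 0.231 (radial glia minus Eomes gate, edgeR adjusted p = 0.121), and -0.60 ± 0.218 with the wider exclusion (adjusted p = 0.802).

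Over all kept cells, 423 of 18547 genes differed between i4F-Nes and CTR (2.28%) and 0 of the 10, where fewer cells of a type and less RNA per cell cannot be told apart. Nes had 63.4 and 42.2 CPM in i4F-Nes and 39.1 and 23.4 CPM in CTR, 0.67 ± 0.302 (edgeR adjusted p = 0.483), and 47.3 and 36.1 CPM in i4F-Nes once cells of both reprogrammed gates were left out.

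Radial glia that were cycling (at least 2 UMIs over Mki67, Top2a and Cenpf) were set against those with 0 such UMIs, over 4 libraries with the library as a block. EdgeR's quasi-likelihood test called 3997 of 12815 genes (31.2%) and 3 of the 10, 2 of them higher against 17.6% of genes and 1 lower against 13.6%. Nes was higher in cycling cells by 0.43 ± 0.116 (adjusted p = 0.0222) and Slc1a3 by 0.24 ± 0.0664 (adjusted p = 0.0126), while Vim was lower by edgeR, -0.17 ± 0.0524 (adjusted p = 0.0230). Nes had 197 and 142 CPM in cycling i4F-Nes cells and 177 and 137 CPM in non-cycling ones, and 199 and 165 CPM in cycling CTR cells against 113 and 125 CPM in non-cycling ones. With the wider exclusion 6 genes were higher in cycling cells (Nes, Fabp7, Slc1a3, Mt3, Phgdh and Ednrb) and 0 lower, against 18.3% of genes higher and 35% called in either direction, and Fabp7 rose by 0.52 ± 0.0975. Cycling cells were deeper, with medians from 16089 to 21531 UMIs per library against 12189.5 to 16866, and the part of depth was not tested here beyond the thinned counts given with the processing alternatives. In the neighbouring pathway 5 of 6 serine and glycine genes were higher in cycling cells, Psat1 by 1.19 ± 0.0849.

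Likeness of pattern was described over 28 points (gates and libraries) by the Pearson correlation of log2(CPM + 1) among 9561 genes. The closest genes to Phgdh were Cdkn3 (r = 0.983), Hes5 (0.978) and Pdpn (0.975), and to Aldoc were Pdpn (0.972), Phgdh (0.972) and Hes5 (0.970). Mt3 was closest to Pea15a (0.948), Mest (0.927) and Fabp7 (0.913), and Fabp7 to Fzd8 (0.932), Shroom3 (0.928) and Pea15a (0.926). Near Vim were Nudt5 (0.975) and Gpx8 (0.973), and the 3 nearest to Nes were Dusp16 (0.944), Racgap1 and Ormdl2. The 3 nearest were Mxd3 (0.978), H2afx and Smc2 for Dbi, Ldha (0.935), Emid1 and Mecr for Slc1a3, Naa20 (0.957), Rgcc and Arhgap5 for Ednrb, and Bri3bp (0.884), Mif and Aprt for Ptn. Among the 45 pairs of the 10 genes r ran from 0.312 (Ednrb and Ptn) to 0.972 (Aldoc and Phgdh). Points of 1 library share its depth and free RNA, and Hes5 helped to define the radial glia gate, so these values describe the libraries only.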

How the data were processed

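Single-cell 3′ RNA-seq (10x Chromium) was analysed from 4 libraries. The authors deposited raw UMI count matrices made with cellranger 7.0.1, per the file headers, aligned to mm10 as the submitters' processing notes state; which annotation release was used is not given in the sources used here. Barcodes with at least 1000 UMIs, 500 genes and at most 10% mitochondrial UMIs were kept, and Scrublet (scanpy 1.11.5) doublets were removed at 0.8% per 1000 barcodes. Library totals were 153706503 and 94052724 UMIs (i4F-Nes) and 113444320 and 96942225 UMIs (CTR). Counting precision is set by these depths, and UMIs were summed per gate and library. EdgeR 4.0.16 (R 4.3.3, quasi-likelihood test, TMM scaling, filterByExpr, Benjamini-Hochberg adjustment over all genes tested, threshold 0.05) was the test, run first on simulated data, with DESeq2 1.42.0 as an alternative. Reprogrammed gates were compared with radial glia by a 2-fold rule in both libraries. Other alternatives changed the filter, scaling, doublet removal, gates, depth and libraries.

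The 10 genes, gates and lists were chosen with earlier results of these data known. Named list genes are at most 4 per list and comparison that passed, by mean level. Those named without passing, and Pfkl, were chosen after their values were seen. Promoters are RefSeq's (GRCm38.p6), and gene positions GENCODE M21's (GRCm38). Protein sequences were not used here. A few results of genes outside the 10 are not reported here.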

Additional observations from a re-analysis of the deposited data

How the results depend on the processing

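In the radial glia gate, 0 of the 10 genes differed between i4F-Nes and CTR under each of the 15 alternatives run, and all 10 were lower in the Eomes gate than in radial glia under each of the 13 run. The number of genes called between groups in the radial glia gate (445) became 907 without a filter on low counts, 244 with at least 2 UMIs of each gate gene, 846 with 2 of the 3 genes, 17 with thinned cells, 0 with the wider exclusion, 920 with reprogrammed cells kept, and 505 to 977 with a library left out (977 without CTR replicate 2). In the Eomes gate (0) it became 52 with DESeq2, 238 without a filter and 4 to 170 with a library left out. Over all cells (423) it became 1146 with DESeq2, 808 without a filter, 74 without the reprogrammed gates and 584 to 782 with a library left out, and 0 to 3 of the 10 genes were then called (3 without CTR replicate 1).

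The difference between gates (42 genes) became 409 without a filter, 27 without TMM, 105 with doublets kept, 77 with 2 UMIs, 349 with 2 of the 3 genes, 230 without Eomes cells, 2 with thinned cells, 2 with the wider exclusion and 83 to 536 with a library left out. Of the 10 genes 2 were then called without a filter (23177 genes tested), 1 with 2 UMIs (14505 tested) and 3 without Eomes cells (14474 tested). With a library left out, 1 library remained in a group, and counts of the 10 are not given here.

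The cycling comparison (3997 of 12815 genes) became 2533 of 12815 with DESeq2 and 4303 of 21795 without a filter. It became 6589 of 14261 with 2 of the 3 genes and 2496 of 12189 without Eomes cells. With thinned cells it was 1583 of 9383, and with the wider exclusion 4384 of 12536. A library left out gave 3027 to 3656, of 12479 to 13045 genes tested. Its 3 called members became 7 without a filter, 7 with 2 of the 3 genes, 5 with thinned cells, 6 with the wider exclusion and 1 to 4 with a library left out (1 without CTR replicate 2). Signs turned for Vim (0.23) with 2 of the 3 genes, and for Slc1a3 (-0.023) and Mt3 (-0.19) without Eomes cells, these being the signs that turned for a gene called in either fit. Without a call, the sign also turned in 5 of the 13 alternatives for Dbi, 3 for Ednrb, 2 each for Phgdh and Ptn and 1 each for Aldoc and Fabp7. The cause of these changes was not tested.

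The 5 genes lower in the reprogrammed progenitor gate became 3 with doublets kept, where Ptn (-1.22, against -1.27) and Dbi (-1.08, against -1.11) missed the 2-fold rule at close mean log2 differences. They became 7 with thinned cells, 6 with 2 UMIs of each radial glia gate gene, 4 with 2 UMIs of each reprogrammed gate gene, 6 with the wider exclusion, 2 at 4-fold and 5 to 8 with a library left out (8 without i4F-Nes replicate 2). Of all genes, 179 were lower and 84 higher there at 4-fold, 693 were higher with the wider exclusion and 583 to 715 with a library left out. In the neuron-like gate 524 were lower and 456 higher at 4-fold. In the reprogrammed progenitor gate 742 of all genes were lower with the wider exclusion, against 535 in the main setting. How many were lower with doublets kept, thinned cells, 2 UMIs or a library left out is not given here. The counts of the 10 genes under those settings thus have no background.

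Same-numbered libraries deviated together (r over genes = 0.398 in the radial glia gate, 0.418 in the Eomes gate and 0.305 over all cells). There are only 2 pairs, and although the controls are littermates no label says that a number marks a shared litter or day, so the samples are taken to share only a number. The replicate block left 1 residual degree of freedom. With it, 1711 of 14165 genes and 0 of the 10 were called in the radial glia gate. In the Eomes gate 499 of 13497 genes and 4 of the 10 were called. These were Nes, Mt3, Phgdh and Ednrb, the last at 1.23 with edgeR adjusted p = 0.00479. Over all cells 1416 of 18547 genes and 1 of the 10 were called (Nes at 0.69, edgeR adjusted p = 0.0147).

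With 2 libraries per group the width of the intervals differed by gene. CTR replicate 1 stood apart in Xist and, in the radial glia gate, in haemoglobin transcripts, which were highest in i4F-Nes replicate 2 in the upper-layer and deep-layer gates.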

Other observations

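In the deep-layer gate no difference between groups was tested, and the levels are a description only. Phgdh had 28.5 and 25.2 CPM in i4F-Nes and 13.2 and 11.9 CPM in CTR. Dbi had 160.1 and 196 CPM in i4F-Nes and 103 and 92.9 CPM in CTR, and Vim 147 and 184 CPM in i4F-Nes against 102 and 71.1 CPM in CTR. Slc1a3 had 67.2 and 46.3 CPM in i4F-Nes and 80.5 and 62.3 CPM in CTR. For the remaining genes the means of the libraries are given, i4F-Nes before CTR. They were 16.5 and 9.51 CPM for Nes, 15.4 and 7.42 CPM for Aldoc and 4.24 and 1.94 CPM for Ednrb. For Fabp7 they were 115 and 106 CPM, for Mt3 18.8 and 16.6 CPM and for Ptn 465 and 335 CPM. The share of all genes that differed as much between groups in this gate is not given here. Nanog stood at 14.2 and 8.40 CPM in the i4F-Nes deep-layer gate, against 0.0738 and 0.0438 CPM in the CTR gate, and its part in these levels was not tested. Radial glia markers summed to 231 and 243 CPM in the i4F-Nes deep-layer gate, against 118.2 and 110.4 CPM in CTR, and erythroid markers to 42.5 and 2286 CPM in i4F-Nes, against 529 and 9.47 CPM in CTR. Their part was not tested either.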
